A study of Mus musculus with 2 samples.

Results

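The genes of xenobiotic metabolism in mouse colon epithelium were read from 2 single-cell RNA sequencing libraries, as counts of unique molecular identifiers (UMIs), each standing for 1 captured transcript. They were chosen by symbol, namely those that start with Cyp1, Cyp2, Cyp3a, Ugt1a, Ugt2, Gsta, Gstm, Gstp, Gstt, Gsto, Sult1, Ces1, Ces2 or Aldh1a. Of the 31053 genes listed in both libraries, 138 carried such a symbol, and the 65 with at least 100 UMIs over both libraries are described here. The other 73 fell under that minimum, 33 of them with no UMI, and they included all 8 Cyp1 genes. Just under the minimum were Ugt1a2 with 70 UMIs, Ugt1a6b with 83, Cyp3a44 with 86 and Cyp2c67 with 96. Just over it were Cyp2c23 with 131 UMIs, Gsto2 with 136, Cyp2j9 with 174 and Ugt1a5 with 189. By family the 65 genes were 21 by the spelling Cyp2, 1 of Cyp3a, 4 of Ugt1a, 4 of Ugt2, 3 of Gsta, 7 of Gstm, 3 of Gstp, 3 of Gstt, 2 of Gsto, 4 of Sult1, 4 of Ces1, 6 of Ces2 and 3 of Aldh1a. The spelling also took in Cyp20a1 and Cyp27a1, which belong to other cytochrome P450 families.

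The GFP library held colonic epithelial cells sorted for GFP. The mice had the genotype c-Kit-creERT2;Rosa26-mTG and had been given tamoxifen intraperitoneally in 1 injection, at 1 mg for every 20 g of body weight. In these mice a tamoxifen-dependent recombinase under c-Kit control switches on GFP for good, so the sorted cells are cells that expressed c-Kit and their progeny. The whole epithelium library held colonic epithelial cells of untreated c-Kit-creERT2 mice, so both groups carried the recombinase. There was 1 library per group, and the number of animals, their age and the time between injection and collection are not given in the sources used here. The female transcript Xist was at 749.8 CPM (the UMIs of a gene scaled by all UMIs of the summed cells) in the GFP library and at 0.06525 CPM in the whole epithelium library. The Y-linked Ddx3y was at 0 CPM in the GFP library and at 35.44 CPM in the whole epithelium library. Genotype, tamoxifen, sorting and the sex of the animals therefore cannot be told apart in any difference between the libraries. In the records each matrix stands beside the barcode list of the other library. Matrices were assigned by size, each to the library whose barcodes it matches in number, and with the reverse assignment every direction between the libraries would turn.

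The GFP library had 150348319 UMIs and the whole epithelium library 164185392 UMIs. After filters on genes, UMIs and mitochondrial share, 5767 cells (42.5%) of the GFP library and 7762 cells (55.6%) of the whole epithelium library remained, with medians of 15821 UMIs and 14160 UMIs. The libraries shared 60 barcodes, of which 31 were kept in GFP and 38 in whole epithelium. Cells were clustered without the enzyme genes and clusters were named from marker lists. The colonocyte-like class had 1615 GFP cells and 2106 whole epithelium cells, the stem/TA-like class (stem or transit-amplifying) 1063 and 1986, the goblet-like class 1027 and 1076, and the enteroendocrine-like class 109 and 329. In nearly every cluster of the absorptive, stem/TA and goblet classes almost all cells came from 1 library, so that each of these classes was compared between different clusters. Unnamed shallow cells made up 23.8% of kept GFP cells and 14.5% of kept whole epithelium cells. T/NK-like cells (62 in GFP and 250 in whole epithelium), immune cells that should lack most of these enzymes, served as the measure of free RNA. Their summed T/NK markers were at 3017 CPM in GFP and 14193 CPM in whole epithelium. Their colonocyte markers were at 14896 CPM and 6054 CPM, and their goblet markers at 11115 CPM and 1838 CPM. In GFP these epithelial markers thus stood above the T/NK markers. With GFP clustered alone, the cluster scoring highest for T/NK got no name. Whether this class measures free RNA equally well in both libraries was not tested. The summed goblet markers were at 2581 CPM in GFP colonocyte-like cells and 666.6 CPM in whole epithelium colonocyte-like cells, and at 2834 CPM and 940.2 CPM in stem/TA-like cells. The part of this higher secretory signal in the results was not tested.

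Xenobiotic metabolism proceeds in steps. Cytochromes P450, carboxylesterases and aldehyde dehydrogenases first oxidise or hydrolyse a compound, and glutathione S-transferases, UDP-glucuronosyltransferases and sulfotransferases then attach a polar group to it so that it can be exported. The colon epithelium meets diet-derived and microbial compounds, and many of these enzymes also handle endogenous retinoids, steroids, bile acids and fatty acids.

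Together the 65 genes held the largest share of UMIs in colonocyte-like cells, the absorptive surface cells of the colon. That share was 0.542% of UMIs in GFP and 0.548% in whole epithelium. It was 0.239% and 0.26% in stem/TA-like cells, 0.179% and 0.189% in goblet-like cells, and 0.245% and 0.294% in enteroendocrine-like cells. For 28 of the 65 genes the colonocyte-like class had the highest level in both libraries. The stem/TA-like class was highest in both for 13 genes, the enteroendocrine-like class for 5, the goblet-like class for 2 and the T/NK-like class for 1, so that 49 of 65 genes had the same leading class in both. Such counts were not made for all genes, so they do not set the enzyme genes apart from other genes. Some leads were narrow. For Gstp1 the leading class was above the next by 1.19-fold in GFP and 1.1-fold in whole epithelium. With 1 library per group there is no test. Fold changes are given as log2 ratios of CPM with exact 95% intervals, which cover counting error only.

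**Figure D1:**
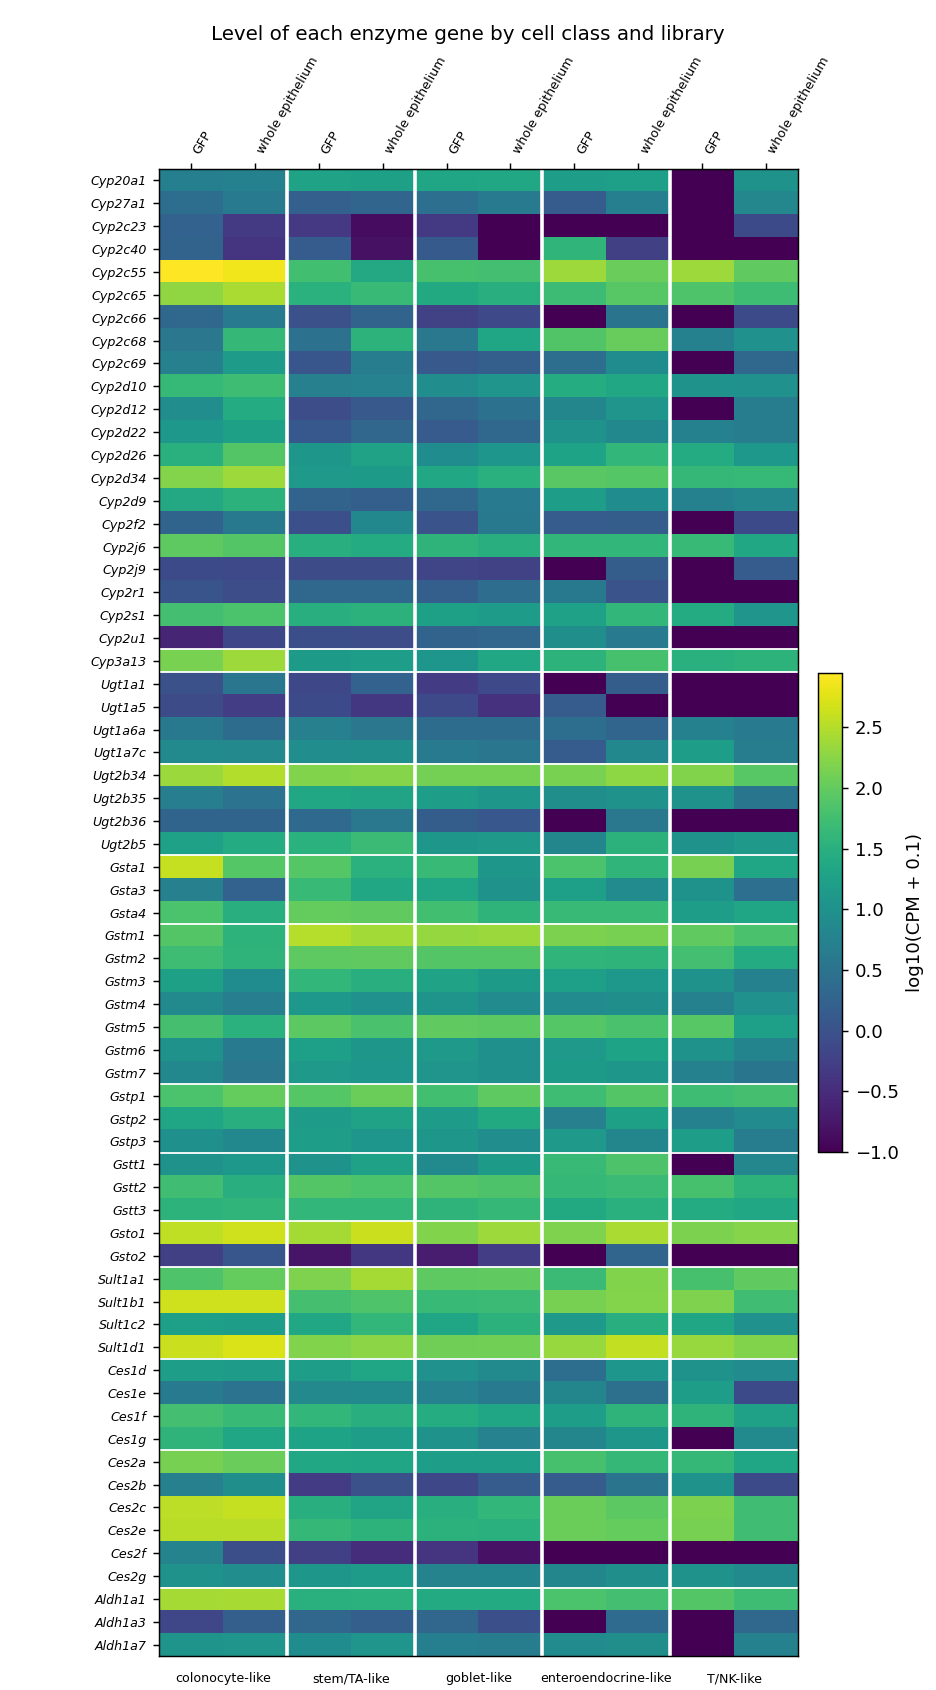
Level of each of the 65 enzyme genes (rows, grouped by family) in 5 cell classes of the GFP and whole epithelium libraries (columns), as log10(CPM + 0.1) in colour. Colonocyte-like columns are brightest for Cyp2c55, at 880.5 CPM in GFP and 725.3 CPM in whole epithelium, and for Sult1b1, Sult1d1, Ces2c and Ces2e, whereas Gstm1 is brightest in stem/TA-like cells.

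Between classes the same direction was required in both libraries. In colonocyte-like against goblet-like cells, 23 of the 52 genes with enough UMIs in both were at least 2-fold higher in both libraries, beside 9.15% of all genes. Another 4 were at least 2-fold lower, beside 24.8% of all genes. Against stem/TA-like cells, 20 of 53 genes were higher in colonocyte-like cells (9.18% of all genes) and 6 were lower (28.9%). The median log2 ratio of colonocyte-like over goblet-like cells was 0.81 for the enzyme genes in GFP and 1.00 in whole epithelium, whereas over all genes it was -0.47 in GFP and -0.33 in whole epithelium. In goblet-like against stem/TA-like cells, 0 of 50 genes were higher in both libraries (4.19% of all genes) and 5 were lower (2.53%), namely Ugt1a7c, Ugt2b5, Gsta3, Gstm3 and Ces2g. The genes higher in colonocyte-like cells against both other classes were 12 cytochromes P450 (Cyp2c55, Cyp2c65, Cyp2c69, Cyp2d10, Cyp2d12, Cyp2d22, Cyp2d26, Cyp2d34, Cyp2d9, Cyp2j6, Cyp2s1 and Cyp3a13), 4 carboxylesterases (Ces2a, Ces2b, Ces2c and Ces2e), Gsta1, the sulfotransferases Sult1b1 and Sult1d1, and Aldh1a1.

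Cyp2c55, an arachidonic acid-metabolising P450 of mouse colon on chromosome 19 at 39007019 to 39042693 (mm10), held the most UMIs of the 65 genes in colonocyte-like cells of both libraries. Its level there was 880.5 CPM in GFP (95% interval 870.3 to 890.7) and 725.3 CPM in whole epithelium (716.5 to 734.2). It stood at 55.58 CPM in stem/TA-like cells of GFP and 23.59 CPM in those of whole epithelium. Cyp2c55 had 17.9 UMIs per colonocyte-like cell in GFP and 12.2 in whole epithelium, 1.61 and 0.673 per stem/TA-like cell, and 1.66 and 0.745 per enteroendocrine-like cell, against 0.726 and 0.572 per T/NK-like cell. Enteroendocrine-like cells had 234.1 CPM in GFP and 112 CPM in whole epithelium, close to the 235.7 CPM and 94.39 CPM of T/NK-like cells. Their UMIs per cell were above those of T/NK-like cells in both libraries, and the part of free RNA in their Cyp2c55 was not tested.

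Other oxidising enzymes followed the same order of classes. Cyp3a13, the mouse CYP3A enzyme known from intestine, stood at 141.4 CPM in GFP and 231.5 CPM in whole epithelium colonocyte-like cells, and at 11.76 CPM and 22.4 CPM in goblet-like cells. The log2 ratio of colonocyte-like over goblet-like cells was 3.59 in GFP (3.43 to 3.75) and 3.37 in whole epithelium (3.23 to 3.51). Cyp2d34 stood at 162.1 CPM in GFP and 229.4 CPM in whole epithelium colonocyte-like cells, and at 12.85 CPM and 14.25 CPM in stem/TA-like cells. Aldh1a1, which makes retinoic acid from retinal, stood at 259.7 CPM in GFP and 267.3 CPM in whole epithelium colonocyte-like cells, and at 26.01 CPM and 26.05 CPM in goblet-like cells. For each of these genes the order of the classes named was the same in both libraries.

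The hydrolysing carboxylesterases of the Ces2 family cleave esters and amides of drugs and of acylglycerols. Ces2c had 354.5 CPM in GFP and 400.8 CPM in whole epithelium colonocyte-like cells, and 30.78 CPM and 40.68 CPM in goblet-like cells. Ces2e had 331.2 CPM in GFP and 326.6 CPM in whole epithelium colonocyte-like cells, and 33.99 CPM and 31.68 CPM in goblet-like cells. The exception in the family was Ces2g, which stood highest in stem/TA-like cells at 12.01 CPM in GFP and 15.32 CPM in whole epithelium. Among sulfotransferases, Sult1b1, which acts on thyroid hormones and phenols, stood at 455 CPM in GFP and 451.5 CPM in whole epithelium colonocyte-like cells, and at 61.29 CPM and 71.15 CPM in stem/TA-like cells. Sult1a1, a phenol sulfotransferase, had the other order, with 72.9 CPM in GFP and 104.4 CPM in whole epithelium colonocyte-like cells, and 150.6 CPM and 260.5 CPM in stem/TA-like cells.

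The glutathione S-transferases differed both between and within subfamilies. Gsta1 was higher in colonocyte-like cells, whereas Gsta3 and Gsta4 had their highest level in stem/TA-like cells in both libraries. None of the 7 Gstm genes was at least 2-fold higher in colonocyte-like cells in both libraries against either other class. Gstm1 stood at 76.83 CPM in GFP and 35.25 CPM in whole epithelium in colonocyte-like cells. It stood at 315.8 CPM in GFP (309.6 to 322.1) and 252.6 CPM in whole epithelium (248.5 to 256.8) in stem/TA-like cells. The log2 ratio of colonocyte-like over stem/TA-like cells for Gstm1 was -2.04 in GFP (-2.1 to -1.98) and -2.84 in whole epithelium (-2.93 to -2.76). Gsta3 was farther apart, with ratios of -3.22 in GFP (-3.46 to -2.99) and -3.75 in whole epithelium (-4.15 to -3.37), from 5.124 CPM in GFP and 1.638 CPM in whole epithelium colonocyte-like cells and 47.86 CPM and 22 CPM in stem/TA-like cells. Cyp20a1, a P450 without an assigned substrate, and Ugt2b35, a glucuronosyltransferase, were also at least 2-fold lower in colonocyte-like cells than in both other classes in both libraries.

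The following 5 genes had their highest level among the named classes in enteroendocrine-like cells, the hormone-secreting cells of the epithelium, in both libraries. These were Cyp2c40, Cyp2c68, Cyp2u1, Gstm7 and Gstt1. For Cyp2c40 the order in whole epithelium rests on 1 UMI, at 0.4571 CPM (0.01157 to 2.547) against 0.3107 CPM in colonocyte-like cells. Gstm7 was not distinguishable from its level in stem/TA-like cells, with 14.23 CPM (7.103 to 25.46) against 13.21 CPM in GFP and 12.34 CPM (8.133 to 17.96) against 11.55 CPM in whole epithelium. Gstt1, a theta-class transferase acting on small halogenated compounds, stood at 46.57 CPM in GFP (32.61 to 64.47) and 69.94 CPM in whole epithelium (59.30 to 81.94), whereas colonocyte-like cells had 10.43 CPM and 12.48 CPM. T/NK-like cells held no Gstt1 UMI in GFP and 10 in whole epithelium. Within whole epithelium its enteroendocrine-like level was uneven. The Chga- and Tph1-led cluster c23 stood at 133.6 CPM, the Pyy- and Gcg-led cluster c24 at 24.33 CPM and cluster c25 at 29.95 CPM. In GFP, c23 stood at 61.52 CPM. Cyp2u1, a fatty acid hydroxylase, stood at 9.054 CPM in GFP and 4.114 CPM in whole epithelium, from 7 UMIs and 9 UMIs.

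Within the colonocyte-like class the genes varied widely between clusters, and some clusters shared leading genes between the libraries. Clusters c16 of GFP and c3 of whole epithelium were led by the bile acid transporter genes Slc51a and Slc10a2 and also by Cyp2c55 and Aldh1a1, though these last were not used to build them. Clusters c14 of GFP and c10 of whole epithelium were led by Atp12a and Tgm3. The clusters of these pairs were not alike in all genes. Fabp6, the first leading gene of c3, stood at 912.2 CPM there and 15.1 CPM in c16, and Tgm3 at 1675 CPM in c10 and 623.9 CPM in c14. Hoxb13, a homeobox gene of the distal colon, stood at 8.207 CPM in c16 and 7.144 CPM in c3, and at 204.5 CPM in c14 and 477.1 CPM in c10. The GFP cluster c4 and the whole epithelium clusters c13 and c15 were led by other surface genes such as Krt20 and Clca4a or Clca4b, and c13 had a median of 6807 UMIs with a median mitochondrial share of 19.4%.

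The Slc10a2-led pair had the higher Cyp2c55, Cyp2c65, Aldh1a1, Ces1f, Ces1g and Ugt2b5. Cyp2c55 stood at 1828 CPM in c16 and 107.8 CPM in c14 of GFP, and at 939.4 CPM in c3 and 154.6 CPM in c10 of whole epithelium. Aldh1a1 stood at 554.5 CPM in c16 and 55.63 CPM in c14 of GFP, and at 410.5 CPM in c3 and 34.28 CPM in c10 of whole epithelium. In GFP the order of the clusters for both genes was the reverse of that of Hoxb13. In whole epithelium this did not hold for Cyp2c55, which stood highest in c13, at 1697 CPM. Ces1g, a carboxylesterase of lipid metabolism, stood at 113.9 CPM in c16 and 5.868 CPM in c14 of GFP, and at 44.6 CPM in c3 and 3.106 CPM in c10 of whole epithelium. Ugt2b5 stood at 56.38 CPM in c16 and 2.201 CPM in c14 of GFP, and at 54.8 CPM in c3 and 6.557 CPM in c10 of whole epithelium.

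Between these pairs, the Atp12a-led one had the higher Cyp2d9, Cyp2d10, Cyp2d12, Cyp2d34 and Ces2g. Cyp2d10 stood at 116.3 CPM in c14 and 11.54 CPM in c16 of GFP, and at 120 CPM in c10 and 17.34 CPM in c3 of whole epithelium. Cyp2d34 stood at 267 CPM in c14 and 68.03 CPM in c16 of GFP, and at 385.1 CPM in c10 and 97.8 CPM in c3 of whole epithelium. Cyp2d9 stood at 56.6 CPM in c14 and 12.01 CPM in c16 of GFP, and at 59.35 CPM in c10 and 11.17 CPM in c3 of whole epithelium. In cluster c13 of whole epithelium, by contrast, both were high, with Cyp2c55 at 1697 CPM, Cyp2d34 at 425.3 CPM and Cyp2d9 at 92.87 CPM, each the highest of the 4 clusters there. Cyp2d26 had the other order, at 22.13 CPM in c14 and 49.36 CPM in c16 of GFP, and at 35.08 CPM in c10 and 121.8 CPM in c3 of whole epithelium. Cyp2d22 was level between c14 and c16 of GFP, at 14.79 CPM and 14.15 CPM. Cyp2d9, Cyp2d10, Cyp2d12 and Cyp2d34 are close copies at 90% or more coding identity. Of the 90-base windows within their last 500 bases, other genes hold 15.3% for Cyp2d9 and 14.2% for Cyp2d10. For Cyp2d12 and for Cyp2d34 that share was 0%. Whether reads were split among these genes was not tested.

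**Figure D2:**
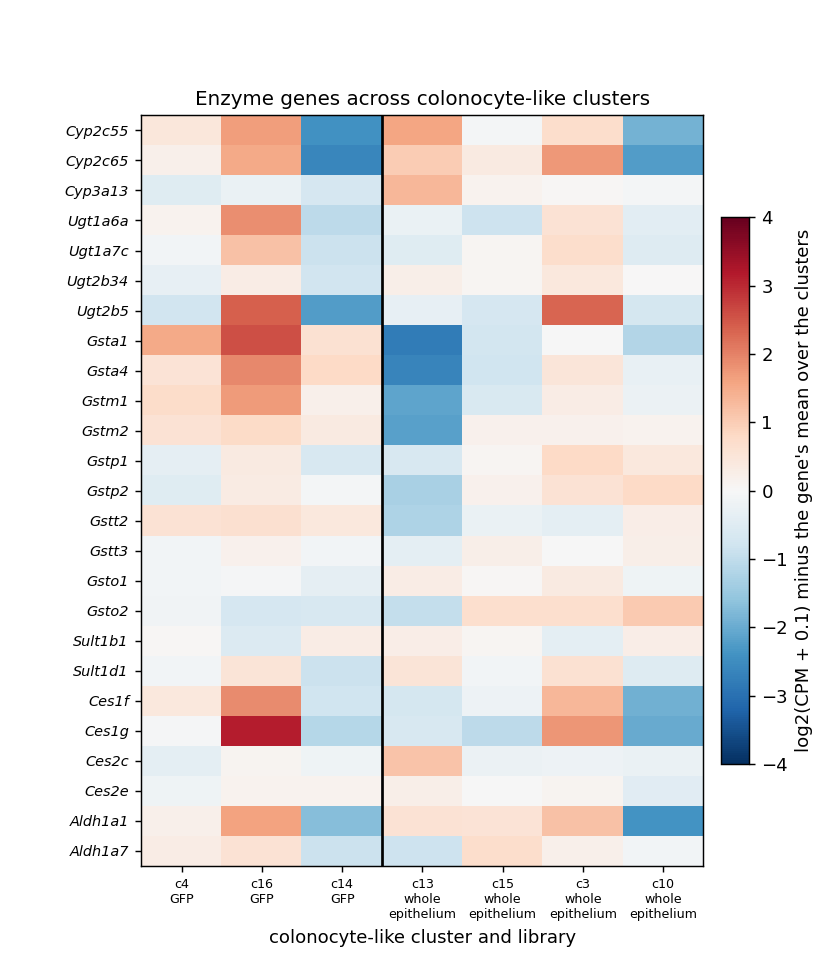
Level of 25 enzyme genes (rows, up to 2 per family with the most UMIs) in the 7 colonocyte-like clusters (columns, GFP clusters left of the line and whole epithelium clusters right of it), as log2(CPM + 0.1) minus the gene's mean over the clusters. Cyp2c55, Cyp2c65, Ugt2b5, Ces1f, Ces1g and Aldh1a1 are red in c16 and c3 and blue in c14 and c10, and Gsta1 is redder in each GFP cluster than in every whole epithelium cluster.

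Between the libraries most genes lay within 2-fold. Over all kept cells 5 of the 65 genes were at least 2-fold higher in GFP than in whole epithelium (2.56% of all genes), 8 were at least 2-fold lower (6.0%) and 52 lay between. The median log2 ratio of the 65 genes was -0.10, and that of all genes was -0.01. The higher genes were Cyp2c40, Cyp2c23, Ces2f, Gsta1 and Ugt1a5, and the lower genes were Cyp2c68, Ugt1a1, Cyp2c66, Cyp2f2, Gsto2, Cyp2c69, Cyp2d12 and Cyp2d26. In colonocyte-like cells 7 of 57 genes were higher in GFP (2.61% of all genes) and 7 were lower (3.80%). In stem/TA-like cells 3 of 56 genes were higher (2.31%) and 4 were lower (3.08%). In goblet-like cells 1 of 49 genes was higher (2.07%) and 2 were lower (2.75%). In enteroendocrine-like cells 1 of 25 genes was higher (1.66%) and 3 were lower (3.21%). Of 25 genes with enough UMIs in all 4 classes, 6 lay above 0 and 10 below 0 in all 4, and 0 were past 2-fold in opposite directions in any pair of classes. These counts of directions were not made over all genes, so they do not set the enzyme genes apart from other genes.

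**Figure D3:**
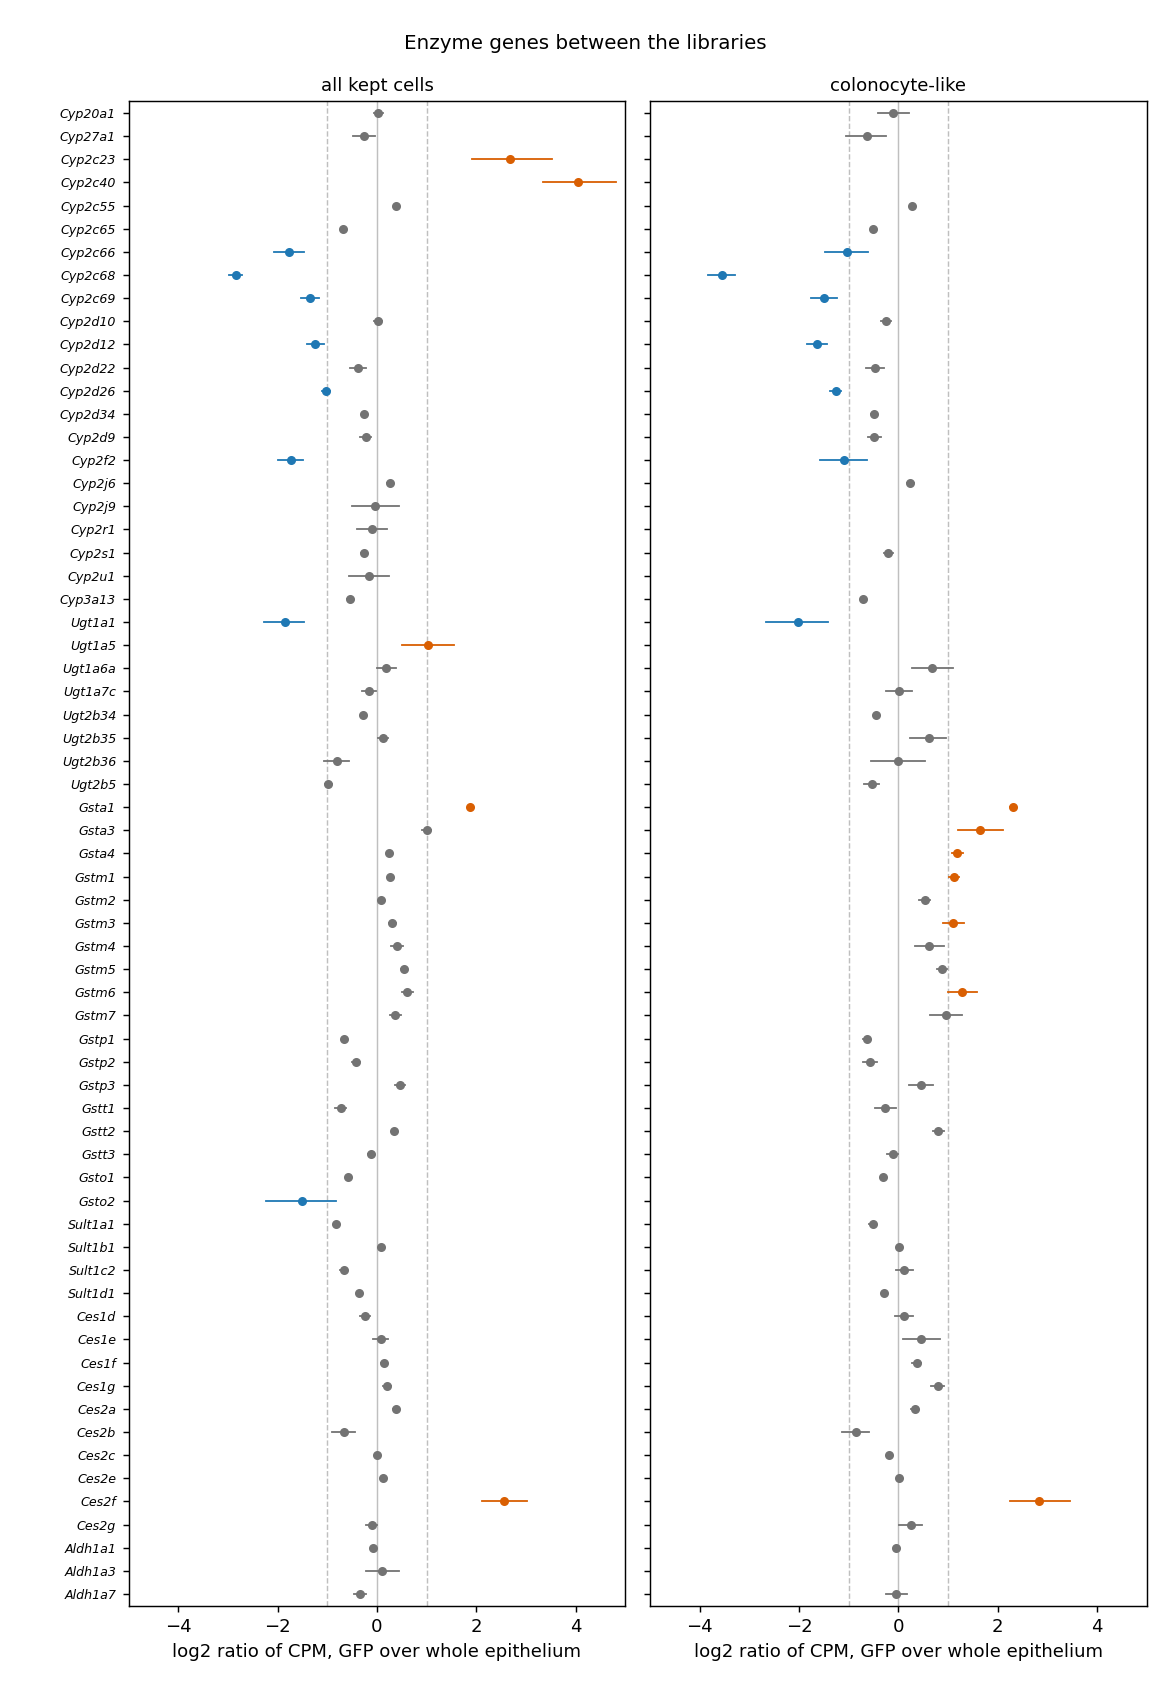
Log2 ratio of CPM, GFP over whole epithelium, of each enzyme gene in all kept cells (left) and in colonocyte-like cells (right), with exact 95% counting intervals and dashed lines at 2-fold. Orange points are at least 2-fold higher in GFP, blue points at least 2-fold lower, and genes under 100 UMIs in the class are not drawn. In colonocyte-like cells all 7 Gstm genes lie right of 0.

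Gsta1, an alpha-class glutathione S-transferase on chromosome 9 at 78230656 to 78242684 (mm10), differed most between the libraries among the genes with over 1000 UMIs in each. In colonocyte-like cells it had 397.6 CPM in GFP (390.8 to 404.5) and 80.64 CPM in whole epithelium (77.71 to 83.66). That is a log2 ratio of 2.30 (2.24 to 2.36). In stem/TA-like cells Gsta1 had 81.28 CPM in GFP and 33.45 CPM in whole epithelium, a log2 ratio of 1.28, and in goblet-like cells it had 47.55 CPM in GFP and 12.01 CPM in whole epithelium, a log2 ratio of 1.99. Each of the 3 GFP colonocyte-like clusters stood above each of the 4 whole epithelium clusters. Gsta1 was at 342.7 CPM in c4, 712 CPM in c16 and 183.4 CPM in c14 of GFP, whereas c13, c15, c3 and c10 of whole epithelium had 17.04, 71.72, 118.4 and 52.91 CPM. Colonocyte-like cells held 8.07 Gsta1 UMIs per cell in GFP and 1.36 in whole epithelium. T/NK-like cells held 0.419 in GFP and 0.124 in whole epithelium, so their Gsta1 was also higher in GFP. Whether this Gsta1 was free RNA was not tested. As a level, T/NK-like cells had 136.2 CPM in GFP and 20.46 CPM in whole epithelium, which is above goblet-like cells in both libraries and above stem/TA-like cells in GFP. In UMIs per cell, by contrast, all 4 other classes stood above the shallow T/NK-like cells in both libraries. The part of free RNA in the Gsta1 of goblet-like cells and of GFP stem/TA-like cells was not tested. Colonocyte-like cells stood above T/NK-like cells by both measures in both libraries. The coding sequence of the near copy Gsta2 is 97.5% identical, and 77.9% of the 3′-end windows of Gsta1 occur in other genes. The sum of Gsta1 and Gsta2 gave the same ratio of 2.30 in colonocyte-like cells. Gsta2 held only 19 UMIs in the kept cells of both libraries, against 26654 for Gsta1, so it could not move the ratio. Gm3776, which also shares these windows, was not in the sum. How reads of the shared windows were assigned was not tested.

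The other alpha-class genes and the mu class were also higher in GFP colonocyte-like cells. Gsta4, which conjugates the lipid peroxidation product 4-hydroxynonenal, had 66.37 CPM in GFP and 29.15 CPM in whole epithelium, a log2 ratio of 1.19 (1.08 to 1.30). Gsta3 had 5.124 CPM in GFP and 1.638 CPM in whole epithelium, a log2 ratio of 1.65 (1.21 to 2.1). Gstm1 had 76.83 CPM in GFP and 35.25 CPM in whole epithelium, a log2 ratio of 1.12 (1.03 to 1.22). For Gstm1 and Gsta3, T/NK-like cells stood above colonocyte-like cells in CPM in both libraries. In UMIs per cell T/NK-like cells stood below, at 0.29 in GFP and 0.388 in whole epithelium for Gstm1. For Gsta3 they held 0.0323 and 0.016 UMIs per cell. The part of free RNA in these colonocyte-like levels was not tested. All 7 Gstm genes, which lie side by side on chromosome 3, had ratios above 0, between 0.53 and 1.29, with Gstm1, Gstm3 and Gstm6 past 2-fold. Over all kept cells their ratios lay between 0.09 and 0.61 and none passed 2-fold. The mu-class differences depended on which colonocyte-like clusters were set side by side. For Gstm1 the log2 ratio was 1.40 between c16 and c3 but 0.43 between c14 and c10, and over 13 alternatives it ran from 0.02 to 2.36 with 5 under 2-fold. Gsta1 was past 2-fold under all 13, from 1.79 to 2.59. In the other transferase classes no gene with enough UMIs was past 2-fold in colonocyte-like cells, and the directions were mixed. Gstp1, the pi-class enzyme, had 66.28 CPM in GFP and 103.6 CPM in whole epithelium colonocyte-like cells (log2 ratio -0.64), and Gsto1, an omega-class thioltransferase, had 368.8 CPM in GFP and 458.5 CPM in whole epithelium (log2 ratio -0.31). Above 0 were Gstt2, a theta-class gene with 54.26 CPM in GFP and 31.1 CPM in whole epithelium (log2 ratio 0.80), and Gstp3 (0.45).

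The promoter of Gsta1 is shown because it differed most among the genes with over 1000 UMIs in each library, and that of Cyp2c65 because it holds motifs of both an absorptive-cell factor and the antioxidant response. Each runs from 250 bases before to 50 bases after the start of the gene (RefSeq, GRCm38.p6, plus strand). The Gsta1 window is chr9:78230419-78230718 and the Cyp2c65 window is chr19:39060756-39061055. Capitals mark matches to the motifs searched on both strands.
Gsta1 promoter: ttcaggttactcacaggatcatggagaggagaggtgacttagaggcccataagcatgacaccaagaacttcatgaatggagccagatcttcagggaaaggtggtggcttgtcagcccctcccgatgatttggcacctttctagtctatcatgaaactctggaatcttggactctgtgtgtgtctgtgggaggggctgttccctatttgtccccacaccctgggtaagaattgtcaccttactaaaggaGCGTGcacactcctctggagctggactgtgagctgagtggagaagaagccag
Cyp2c65 promoter: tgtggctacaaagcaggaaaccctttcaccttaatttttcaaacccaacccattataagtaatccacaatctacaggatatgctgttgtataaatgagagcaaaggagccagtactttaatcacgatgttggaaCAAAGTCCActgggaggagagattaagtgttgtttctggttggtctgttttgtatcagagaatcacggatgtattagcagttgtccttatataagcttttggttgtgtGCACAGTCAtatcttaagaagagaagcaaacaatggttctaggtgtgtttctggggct
The Gsta1 window holds 1 match to GCGTG, the core letters bound by the aryl hydrocarbon receptor, and none to the other motifs. The Cyp2c65 window holds 1 match to CAAAGTCCA, letters bound by HNF4A, and 1 to TGACNNNGC, the antioxidant response core. GCGTG was in 11 of the 54 enzyme genes with a promoter in the table (20.4%) and in 32.5% of all 27025 promoters. TGACNNNGC was in 5 of 54 (9.26%) and in 12.5% of all, and TTTATNG, letters bound by CDX2, in 3 of 54 (5.56%) and in 11.3% of all. CAAAGTCCA was in 4 of 54 (7.41%) and in 0.477% of all promoters, but the 4 are the neighbouring and related genes Cyp2c40, Cyp2c65, Cyp2c68 and Cyp2c69.

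Ces2f, a carboxylesterase on chromosome 8 with few UMIs, differed mainly in 1 cluster. Over all kept cells it had 232 UMIs in GFP and 50 UMIs in whole epithelium, a log2 ratio of 2.56 (2.11 to 3.03). Of the GFP UMIs, 172 were in c14, where Ces2f stood at 21.03 CPM (18 to 24.42), and it stood at 0.5947 CPM in c16 and 0.4324 CPM in c4. In whole epithelium it stood at 1.495 CPM (0.7962 to 2.557) in c10, the cluster there also led by Atp12a and Tgm3, and at 0.4855 CPM in c3. The log2 ratio between c14 and c10 was 3.81, and T/NK-like cells of either library held no Ces2f UMI. The neighbouring Ces2e and Ces2c lay within 2-fold between the libraries in colonocyte-like cells, with log2 ratios of 0.02 and -0.18.

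The Cyp2c genes gave both the highest and the lowest ratio of the 65, and these belong to near copies. Cyp2c40 and Cyp2c68 lie on the minus strand of chromosome 19 at 39767071 to 39812814 and 39688834 to 39741054 (mm10), with Cyp2c67 and Cyp2c69 on either side. Cyp2c40 and Cyp2c68 share 92.6% of the coding sequence, and Cyp2c68 and Cyp2c67 share 97.2%. The last 90 coding bases of the 4 genes (GRCm38) are shown because they are nearly the same in all 4. Capitals mark the 5 positions at which any of the 4 differs.
Cyp2c40: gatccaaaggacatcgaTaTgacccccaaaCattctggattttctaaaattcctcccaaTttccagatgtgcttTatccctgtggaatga
Cyp2c67: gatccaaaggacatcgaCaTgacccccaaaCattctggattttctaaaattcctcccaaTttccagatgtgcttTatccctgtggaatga
Cyp2c68: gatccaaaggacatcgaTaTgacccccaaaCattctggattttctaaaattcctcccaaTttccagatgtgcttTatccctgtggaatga
Cyp2c69: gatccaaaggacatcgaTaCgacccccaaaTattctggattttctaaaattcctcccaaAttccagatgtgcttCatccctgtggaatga
Cyp2c40 and Cyp2c68 are identical over this stretch. Of the 3′-end windows of Cyp2c40, each 90 bases within the last 500 bases, 31.5% occur in another gene, and of those of Cyp2c68 28%.

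Cyp2c40 had 233 UMIs in GFP and 18 UMIs in whole epithelium over all kept cells, a log2 ratio of 4.04 (3.35 to 4.82). Cyp2c68 had 546 UMIs in GFP and 4958 UMIs in whole epithelium, a log2 ratio of -2.84 (-2.97 to -2.71). Cyp2c69 had 328 UMIs in GFP and 1054 UMIs in whole epithelium, a log2 ratio of -1.34 (-1.52 to -1.16). The near copies thus ran in opposite directions, and Cyp2c68 and Cyp2c69 were lower in GFP. Summed over Cyp2c40, Cyp2c67, Cyp2c68 and Cyp2c69, GFP had 10.83 CPM and whole epithelium 43.83 CPM, a log2 ratio of -2.02 (-2.11 to -1.93). In colonocyte-like cells the sum gave -2.38, in stem/TA-like cells -2.77 and in goblet-like cells -1.81.

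In enteroendocrine-like cells that sum was level, at 119 CPM in GFP and 114.7 CPM in whole epithelium, a log2 ratio of 0.05 (-0.31 to 0.40). Its make-up differed there. Cyp2c40 had 29 UMIs in GFP and 1 UMI in whole epithelium, and Cyp2c68 had 58 UMIs in GFP and 230 UMIs in whole epithelium. How the reads of these near copies were assigned was not tested.

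Cyp2c68 also varied between the clusters of a class. Among stem/TA-like clusters Cyp2c68 stood at 1.463 CPM in c5 and 6.02 CPM in c19 of GFP, both named by cycling genes. In whole epithelium it stood at 4.459 CPM in c9 and 1.44 CPM in c18, also named by cycling genes, at 10.15 CPM in c7 and at 105 CPM in c6, both named by stem genes. Cyp2f2, a P450 best known from airway club cells, was highest in the same cluster, with 0.3776 CPM in c5 and 1.765 CPM in c19 of GFP, and 21.02, 1.23, 0.9475 and 0.1108 CPM in c6, c7, c9 and c18 of whole epithelium. The stem/TA-like log2 ratios of -3.59 (Cyp2c68) and -3.06 (Cyp2f2) thus set c5 and c19 against a mix that holds c6. No GFP cluster was named by stem genes in this clustering. The summed stem markers were nonetheless alike, at 541.4 CPM in GFP and 591.6 CPM in whole epithelium stem/TA-like cells. Cluster c19 shared the leading genes Trf and Fut9 with c6 but stood below it in both Cyp2c68 and Cyp2f2. The part of cluster make-up in these ratios was not tested. In colonocyte-like cells Cyp2c68 stood at 3.521, 2.26 and 5.135 CPM in c4, c16 and c14 of GFP, and at 2.198, 31.87, 11.03 and 122.2 CPM in c13, c15, c3 and c10 of whole epithelium. The clusters c15, c3 and c10 thus stood above all 3 GFP clusters. Cluster c13, with 8 UMIs of Cyp2c68 (0.949 to 4.331 CPM), was not distinguishable from c16 (1.361 to 3.529 CPM).

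**Figure D4:**
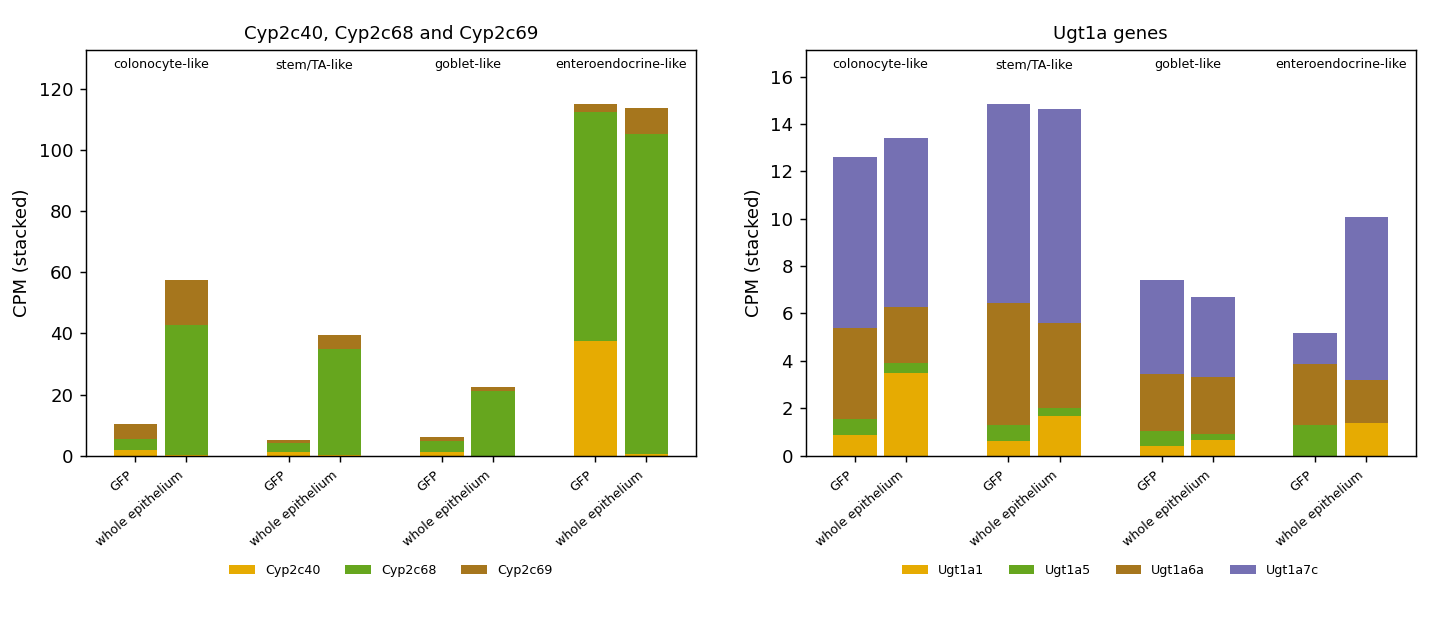
Stacked CPM of Cyp2c40, Cyp2c68 and Cyp2c69 (left) and of 4 Ugt1a genes (right) in 4 cell classes, GFP bars left of whole epithelium bars. The Cyp2c stacks are lower in GFP except in enteroendocrine-like cells, where the summed levels were 119 CPM in GFP and 114.7 CPM in whole epithelium with Cyp2c67 included, and the Ugt1a stacks of colonocyte-like, stem/TA-like and goblet-like cells are of like height.

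The Ugt1a genes share 1 locus on chromosome 1, in which each gene has its own first exon and all share the exons that follow. They glucuronidate bilirubin (Ugt1a1), phenols and steroids. Ugt1a1 had 65 UMIs in GFP and 299 UMIs in whole epithelium, a log2 ratio of -1.86 (-2.27 to -1.46), and Ugt1a5 had 80 UMIs in GFP and 50 UMIs in whole epithelium, a log2 ratio of 1.02 (0.50 to 1.56). Summed over the 9 genes of the locus, GFP had 12.58 CPM and whole epithelium 13.8 CPM, a log2 ratio of -0.13 (-0.24 to -0.03). The UMIs assigned to the 9 genes were therefore nearly level in sum between the libraries. All 3′ windows of Ugt1a1, Ugt1a5 and Ugt1a6a (100%) occur in other genes, so the sum may not hold all reads of the locus. How the reads of the shared exons were assigned was not tested. Outside this locus, Ugt2b34, the glucuronosyltransferase with the most UMIs, had 226.9 CPM in GFP and 309.1 CPM in whole epithelium colonocyte-like cells (log2 ratio -0.45).

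The remaining lower genes were P450s and Gsto2. In colonocyte-like cells the 7 lower genes were Cyp2c68 (log2 ratio -3.56), Ugt1a1 (-2.02), Cyp2d12 (-1.63), Cyp2c69 (-1.50), Cyp2d26 (-1.26), Cyp2f2 (-1.10) and Cyp2c66 (-1.03). Cyp2d12 had 8.54 CPM in GFP and 26.41 CPM in whole epithelium colonocyte-like cells, a log2 ratio of -1.63. The sum of Cyp2d10 and its near copies, Cyp2d12 included, gave -0.52 there, though 0% of the 3′-end windows of Cyp2d12 occur in other genes. Cyp2d26 had 32.33 CPM in GFP and 77.54 CPM in whole epithelium colonocyte-like cells, a log2 ratio of -1.26, and -1.03 (-1.10 to -0.95) over all kept cells. Cyp2c66 had 115 UMIs in GFP and 498 UMIs in whole epithelium, a log2 ratio of -1.77. Its sum with the near copy Cyp2c65, which had far more UMIs, gave -0.71, and 3.89% of the 3′-end windows of Cyp2c66 occur in Cyp2c65. Gsto2 had 23 UMIs in GFP and 83 UMIs in whole epithelium, a log2 ratio of -1.51 (-2.24 to -0.82). Cyp2f2 had 160 UMIs in GFP and 674 UMIs in whole epithelium over all kept cells, a log2 ratio of -1.73. Its nearest relative in the family shares 61.9% of the coding sequence. The lower genes were thus mostly members of close pairs or of few UMIs, apart from Cyp2d26 and Cyp2f2. Cyp2c23, a P450 that makes epoxides of arachidonic acid in kidney, had 86 UMIs in GFP and 17 UMIs in whole epithelium, a log2 ratio of 2.68 (1.92 to 3.53).

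The other 52 genes lay within 2-fold between the libraries over all kept cells, with log2 ratios between -0.98 for Ugt2b5 and 1.00 for Gsta3, which stood at the boundary. Several of the genes with the most UMIs were nearly level. The ratio was 0.38 for Cyp2c55, -0.55 for Cyp3a13, 0.01 for Ces2c, 0.12 for Ces2e, 0.09 for Sult1b1, -0.37 for Sult1d1 and -0.08 for Aldh1a1. Lower in GFP but under 2-fold were Sult1a1 at -0.82, Ugt2b36 at -0.81, Gstt1 at -0.73, Cyp2c65 at -0.69, and Gstp1, Sult1c2 and Ces2b at -0.67 each. Of the carboxylesterases of the Ces1 family, Ces1d, Ces1e, Ces1f and Ces1g lay between -0.24 and 0.20. Of the P450s not yet named, Cyp2j6 and Cyp2j9, which act on arachidonic acid, had ratios of 0.26 and -0.03, the vitamin D 25-hydroxylase Cyp2r1 had -0.10, Cyp2d22 had -0.38 and the sterol 27-hydroxylase Cyp27a1 had -0.26. The retinal dehydrogenase Aldh1a3 had 0.11 and its relative Aldh1a7 had -0.35. The transferases Gstp2, Gstp3, Gstt2 and Gstt3 had -0.42, 0.47, 0.35 and -0.12.

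Some genes were past 2-fold in single classes. Cyp2c55 was higher in GFP stem/TA-like cells by a log2 ratio of 1.24, with 55.58 CPM in GFP and 23.59 CPM in whole epithelium, and in enteroendocrine-like cells by 1.06. The stem/TA-like levels of Cyp2c55 were under the CPM of T/NK-like cells of the same library, and the enteroendocrine-like levels were near it. Gsta3 was higher in GFP stem/TA-like cells by 1.12, where c19 stood at 110.4 CPM and c5 at 19.4 CPM, and c6, c7, c9 and c18 of whole epithelium between 18.22 CPM and 26.61 CPM. Sult1a1 was lower in GFP enteroendocrine-like cells by a log2 ratio of -1.68, with 38 UMIs in GFP and 345 UMIs in whole epithelium, and Cyp2s1, a P450 of retinoid metabolism, was lower there by -1.17, as was Cyp2d26 by -1.05. In stem/TA-like cells Cyp2c69 (-2.12) and Ugt1a1 (-1.43) were also lower in GFP. In goblet-like cells Cyp2c68 (-2.52) and Cyp2d9 (-1.0) were lower in GFP.

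Few other genes of the pathway were past 2-fold between the libraries over all kept cells. Of all genes, 2.56% were at least 2-fold higher in GFP there and 6.0% at least 2-fold lower. In lists this short, such small counts do not set these genes apart from all genes. Of 12 receptors and regulators with enough UMIs, 0 were past 2-fold in either direction. Among them the absorptive-cell factor Hnf4a had 204.4 CPM in GFP and 187.9 CPM in whole epithelium, and Nfe2l2, the regulator of antioxidant genes including many glutathione S-transferases, had 138.5 CPM and 159.4 CPM. Nr1h4, the bile acid receptor, had 57.33 CPM in GFP and 66.94 CPM in whole epithelium. Of 12 genes of glutathione supply and use, 1 was higher, the cystine importer subunit Slc7a11 with 2.617 CPM in GFP and 1.247 CPM in whole epithelium. Among the redox partners and hydrolases, the epoxide hydrolase Ephx1 was lower, with 2.801 CPM in GFP and 8.287 CPM in whole epithelium. Of 21 other reductases and dehydrogenases, Adh7 was higher (88 UMIs in GFP and 25 UMIs in whole epithelium) and Xdh lower (12.12 CPM in GFP and 27.69 CPM in whole epithelium). Of 8 other conjugating genes and 8 transporters, 0 were past 2-fold. Of these lists 3 genes were past 2-fold in colonocyte-like cells, Gpx2 and Akr1b8 higher in GFP and Xdh lower. Of all genes, 2.61% were higher there and 3.80% lower. Gpx2, a glutathione peroxidase of the crypt, had 365.6 CPM in GFP and 119.7 CPM in whole epithelium, a log2 ratio of 1.61 (1.56 to 1.66), and the aldo-keto reductase Akr1b8 had 95.16 CPM in GFP and 40.11 CPM in whole epithelium, a log2 ratio of 1.25 (1.16 to 1.34). As CPM, T/NK-like cells had more Gpx2 than colonocyte-like cells in each library, at 707.1 CPM in GFP and 221.8 CPM in whole epithelium. T/NK-like cells were shallower, with medians of 1908.5 and 4226 UMIs, against 18400 and 14178 UMIs in colonocyte-like cells. In UMIs per cell the order was the reverse, and the part of free RNA in the colonocyte-like Gpx2 was not tested. Akr1b8 stood at 62.85 CPM in GFP and 24.42 CPM in whole epithelium T/NK-like cells.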

How the data were processed

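The deposited files hold UMI counts for each gene in each barcode. The authors used Cell Ranger 2.1.1 and build mm10, per the submitters' processing notes, but version 3.1.0 stands in the matrix headers. The values carry no normalisation. UMIs were counted at the 3′ end, per the labels' protocols, so CPM was not divided by gene length, and a level compared between genes depends on how well each was captured and assigned.

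The genes, lists and classes were chosen with earlier results of these data known. Each matrix was given to the barcode list of its size. Kept barcodes had 500 or more genes, 1000 or more UMIs and a mitochondrial share of 25% or less, doublets included, and no doublet caller was run here. Counts were scaled to 10000 per cell and logged. Both libraries were clustered together on 2000 variable genes without the enzyme genes, 30 principal components and 15 neighbours with leidenalg 0.10.2 at resolution 1.0 (Python 3.11.15, scikit-learn 1.9.0). Clusters took the class whose fixed markers scored highest, with a score of at least 0.5 and at least 3 markers raised. Shallow clusters needed a score of 2.0 and an own marker among their 10 leading genes, and a cluster with another class's markers in the lead got no name. The naming rule was set with the data in view. Some named clusters were led by other genes too, c18 by antigen presentation genes, c13 by interferon-induced genes and c7 by haemoglobin genes.

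UMIs were summed per class and library and given as CPM with exact Poisson 95% intervals. Ratios have exact conditional binomial intervals and need at least 100 UMIs over the cells compared (scipy 1.17.1). Where a library had 0 UMIs of a gene, 3 UMIs stood in as the floor. With 1 library per group no p-value was computed. The ratio step was tested on simulated data for all kept cells, where it called 197 of 197 changed genes and 0 of 12673 unchanged genes. The simulated counts held Poisson counting noise only, and every made change lay well past 2-fold. The result therefore checks the computation and does not cover variation between animals, sorts or clusters. Genes named in the text were the 3 of each family with the most UMIs, those past 2-fold between libraries, the 3 farthest in each direction per class and those highest in the same class other than colonocyte-like in both libraries; others were named after their values were seen. Coding sequences came from the GRCm38 annotation and promoters from RefSeq GRCm38.p6. Alternatives changed the cell filter, weighting, scaling, gene minimum, clustering, class calls, shared barcodes and free RNA. One gene of the pathway lists is not reported here.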

Additional observations from a re-analysis of the deposited data

How the results depend on the processing

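No enzyme gene past 2-fold between the libraries had the opposite sign under any alternative run. Over all kept cells, the count of 5 enzyme genes higher in GFP became 10 at a minimum of 20 UMIs and 1 at a minimum of 500 UMIs, which leaves fewer genes, and that 1 was Gsta1. The median log2 ratio lay between -0.16 and -0.03 throughout. Single genes under 2-fold were Cyp2d26 at -0.97 with the stricter cell filter, Cyp2d12 at -0.86 with equal weight per cell and Ugt1a5 at 0.96 over all barcodes, and Gsta3 lay between 0.87 and 1.14. In colonocyte-like cells the 7 higher genes became 2 with the stricter cell filter, 3 at resolution 0.5, 12 with free RNA subtracted and 11 between c16 of GFP and c3 of whole epithelium, a pair chosen after seeing the data, which gave 2 lower genes in place of 7. In goblet-like cells the 1 higher gene became 6 with the stricter cell filter, 5 with free RNA subtracted, and 2 at resolution 0.5, at resolution 2.0 or with the enzyme genes used in clustering. The 2 lower genes there became 4 with each library clustered alone, and 1 with the stricter filter, at resolution 2.0, without shared barcodes or with free RNA subtracted. In stem/TA-like cells the 3 higher genes became 1 with classes set per cell and 5 with free RNA subtracted, and the 4 lower genes became 9 with classes set per cell. In enteroendocrine-like cells the 1 higher gene became 2 with equal weight per cell or free RNA subtracted and 3 with classes set per cell, and the 3 lower genes became 5 with equal weight. The numbers of genes compared and the shares of all genes past 2-fold under these alternatives are not given here. These counts therefore do not show whether the enzyme genes changed more than other genes. The cause of these changes was not tested. The stricter filter for enteroendocrine-like cells and resolution 0.5 for stem/TA-like cells gave no value. No paired analysis was possible because each group had 1 library. Genes under 100 UMIs in a class were not compared there, and the enteroendocrine-like and T/NK-like cells were shallow.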
